A study of Mus musculus with 9 samples.

Results

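Whole hearts that had received an amino-terminal fragment of histone deacetylase 4 (HDAC4) before pressure overload were compared with hearts that had received luciferase before the same surgery. All mice were male C57BL/6. At 8 weeks of age each was given an adeno-associated virus (AAV) with its cargo under the MLC promoter, a myosin light chain promoter used to direct expression to heart muscle. The cargo was either HDAC4 amino acids 1 to 201, called HDAC4-NT here, or luciferase as the control protein. Transverse aortic constriction (TAC), which narrows the aorta and loads the left ventricle with pressure, followed 4 weeks later, and hearts were frozen after a further 4 weeks. The comparison uses 6 of the 9 arrays of the series, 3 HDAC4-NT hearts and 3 luciferase hearts, numbered 1 to 3 as in their titles. The other 3 arrays, from sham-operated mice with the luciferase virus, enter the fit and are given as a reference level. Every heart carried an AAV, only the cargo differed between the TAC groups, and no sham mouse received HDAC4-NT. Of 20239 named genes, the 12597 that were bright enough to test are described.

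HDAC4 is a class IIa histone deacetylase. These proteins bind the MEF2 transcription factors of heart muscle through their amino-terminal part and hold MEF2 target genes down, and hypertrophic signals relieve the repression by sending them out of the nucleus. An amino-terminal fragment without the deacetylase domain can still bind MEF2. Pressure overload is known to switch on fetal and matrix genes in the heart, while immediate early genes are a separate, fast class that cells turn on within minutes of a stimulus, before new protein is made.

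Among the genes past the threshold that were lower with HDAC4-NT, Atf3, a transcription factor of the ATF/CREB family that many stresses induce, differed most. Also lower were Btg2 and Gadd45g, which restrain the cell cycle, Ero1a, which drives disulphide bond formation in the endoplasmic reticulum, and Slc2a1, the basal glucose transporter GLUT1. Genes that were higher included Cd200 and Efna1, both signalling proteins of the cell surface, and the matrix genes Col8a1 and Pxdn. The threshold was an adjusted p under 0.05 (limma, Benjamini-Hochberg). By it 32 of 12597 genes (0.254%) passed, 18 higher (0.143%) and 14 lower (0.111%) with HDAC4-NT. In a fit of the 6 TAC arrays alone 0 passed in limma (1868 at an unadjusted p under 0.05), and the adjusted p of the 32 genes was 0.0708 to 0.0925. Values are log2 RMA expression throughout, so a difference of 1 is a 2-fold change, and a difference is the HDAC4-NT mean minus the luciferase mean. P-values rest on the spread among 3 hearts a group. In whole hearts, fewer cells of a type and less RNA per cell cannot be told apart.

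Before the genes are described in turn, the stretches upstream of 6 of them are shown, because they let these genes be set side by side as DNA. They are the 5 genes named above as lower, together with Lrrc14b, the higher gene with the smallest p. Each run is the 250 bases before the annotated transcription start in RefSeq (GRCm38.p6), 5′ to 3′ on the strand of the gene. They lie at chr1:191183334-191183583 (minus strand) for Atf3, chr1:134079156-134079405 (minus strand) for Btg2, chr13:51846425-51846674 (plus strand) for Gadd45g, chr14:45318573-45318822 (minus strand) for Ero1a, chr4:119108495-119108744 (plus strand) for Slc2a1 and chr13:74364001-74364250 (minus strand) for Lrrc14b. Capitals mark exact matches, on either strand, to 7 motifs searched. All 6 genes shown have a match. Most genes past the threshold have none, among them Shb, whose p is smaller than that of Gadd45g.
Atf3: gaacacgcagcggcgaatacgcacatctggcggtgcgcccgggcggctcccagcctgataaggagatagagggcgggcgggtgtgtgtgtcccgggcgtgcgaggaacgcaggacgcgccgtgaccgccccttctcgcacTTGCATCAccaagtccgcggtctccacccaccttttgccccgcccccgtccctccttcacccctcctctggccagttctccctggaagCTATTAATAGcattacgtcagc
Btg2: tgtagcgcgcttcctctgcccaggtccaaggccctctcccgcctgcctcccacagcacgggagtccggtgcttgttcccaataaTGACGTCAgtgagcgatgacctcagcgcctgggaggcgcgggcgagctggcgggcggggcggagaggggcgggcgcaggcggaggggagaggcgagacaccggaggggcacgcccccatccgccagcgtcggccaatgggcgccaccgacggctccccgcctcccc
Gadd45g: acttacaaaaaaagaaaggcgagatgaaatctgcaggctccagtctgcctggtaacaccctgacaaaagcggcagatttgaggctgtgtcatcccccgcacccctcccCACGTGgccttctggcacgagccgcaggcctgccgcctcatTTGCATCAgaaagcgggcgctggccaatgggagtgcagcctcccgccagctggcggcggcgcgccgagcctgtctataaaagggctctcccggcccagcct
Ero1a: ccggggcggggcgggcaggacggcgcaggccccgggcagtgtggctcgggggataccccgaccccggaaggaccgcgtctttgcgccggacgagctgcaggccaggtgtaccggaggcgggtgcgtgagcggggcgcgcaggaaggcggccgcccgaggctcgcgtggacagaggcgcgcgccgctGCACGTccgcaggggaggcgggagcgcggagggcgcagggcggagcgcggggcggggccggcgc
Slc2a1: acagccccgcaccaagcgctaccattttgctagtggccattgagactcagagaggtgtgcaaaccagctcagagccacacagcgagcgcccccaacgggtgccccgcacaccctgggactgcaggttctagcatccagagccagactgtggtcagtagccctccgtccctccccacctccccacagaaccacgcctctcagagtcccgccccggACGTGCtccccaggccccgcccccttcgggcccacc
Lrrc14b: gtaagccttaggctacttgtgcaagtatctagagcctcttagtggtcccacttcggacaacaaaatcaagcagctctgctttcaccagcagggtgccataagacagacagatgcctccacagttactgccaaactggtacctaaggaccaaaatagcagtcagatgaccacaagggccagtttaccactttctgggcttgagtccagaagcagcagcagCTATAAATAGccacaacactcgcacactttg

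The capitals are, for Atf3, a match to the C/EBP-ATF motif TGATGCAA at -110 to -103 and one to the MEF2 site at -22 to -13, where -1 is the base before the start. In Btg2 they are the cyclic AMP response element (CRE) TGACGTCA at -166 to -159. In Gadd45g they are the E-box CACGTG, which clock proteins and others bind, at -142 to -137, and the C/EBP-ATF motif at -101 to -94. The hypoxia element ACGTGC is marked in Ero1a at -64 to -59 and in Slc2a1 at -36 to -31. The MEF2 site lies at -31 to -22 in Lrrc14b. Windows of 300 bases, 250 before and 50 after the start, were held for 9930 of the 12597 genes, 14 of the 14 lower genes and 16 of the 18 higher genes. The hypoxia element was present for 3 of the 14 lower genes (also Klf4, where it overlaps an E-box) and for 0 of the 16 higher, against 9.27% of the 9930 genes. The C/EBP-ATF motif was present for 2 of 14 and 0 of 16 (0.705% of all), the CRE for 1 and 0 (3.39%), the MEF2 site for 1 and 1 (0.645%) and the E-box for 3 and 2 (11.6%). The NBRE AAAGGTCA, the binding letters of Nr4a receptors, and the CArG box of serum response factor were present for 0 genes of either group (1.21% and 1.7% of all). These are matches of letters, and binding was not measured.

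The 6 TAC arrays were not 3 against 3 in shape. In a principal component analysis of these arrays the first component held 55.3% of the variance, with the HDAC4-NT hearts at -11.4, -8.0 and -8.5 and luciferase hearts 2 and 3 at 17.2 and 14.5, but luciferase heart 1 at -3.81. The second component held 17.7% and set luciferase heart 1, at -14.1, apart from the other 5. Luciferase hearts 2 and 3 differed by over 0.5 log2 units in 128 genes, whereas heart 1 differed from them in 499 and 430 genes and from the HDAC4-NT hearts in only 220 to 279. The first number of the sample codes is 8 for luciferase heart 1 and 9 for hearts 2 and 3 (3, 4 and 4 for the HDAC4-NT hearts). The labels do not say what it numbers. The HDAC4-NT mean was more than 0.5 away from luciferase heart 1 in 193 genes (90 higher and 103 lower), from heart 2 in 518 (197 and 321) and from heart 3 in 390 (123 and 267). In 46 genes it was that far from all 3 luciferase hearts on the same side, 16 higher and 30 lower.

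**Figure D1:**
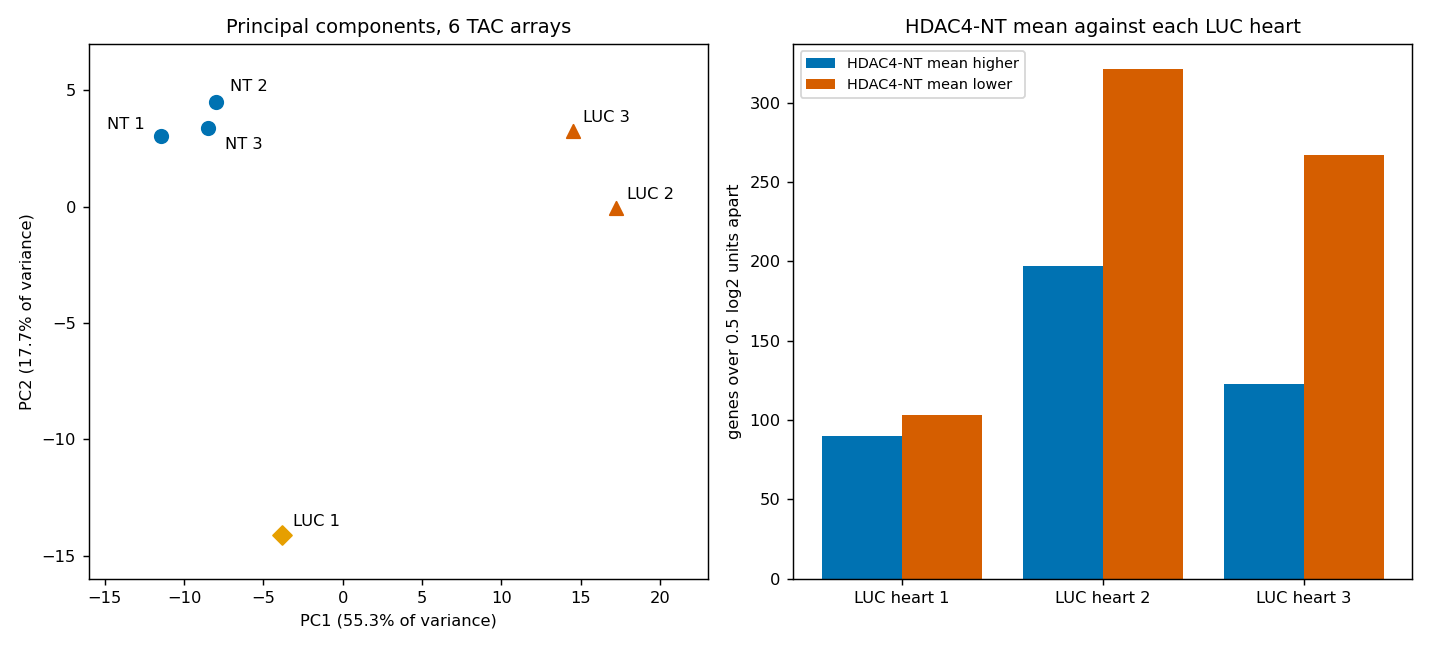
Left, the first and second principal components of the 6 TAC arrays over all genes tested; each point is 1 heart (NT, HDAC4-NT; LUC, luciferase). Right, the number of genes whose HDAC4-NT mean lay over 0.5 log2 units above or below each luciferase heart. Luciferase heart 1 sits nearest the HDAC4-NT hearts on the first component and far from all others on the second, and it has the fewest genes apart from the HDAC4-NT mean.

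The count of 32 moved with single hearts, so each gene is given array by array. Without luciferase heart 1 it was 697 genes (5.53% of 12597), 300 higher (2.38%) and 397 lower (3.15%), and all 32 were among them. Without luciferase heart 2 or 3 it was 4 or 12, without HDAC4-NT heart 1, 2 or 3 it was 1, 1 or 9, and without sham heart 1, 2 or 3, which enters only through the shared spread, it was 16, 6 or 7. With luciferase heart 1 as the only luciferase heart, taken to vary like the other groups, 10 genes (0.0794%) passed, and 4 of them were among the 32, namely Btg2, Ero1a, Atf3 and Slc2a1. The groups did not overlap in any of the 32 genes. Over all genes tested, 11.6% had every HDAC4-NT heart above every luciferase heart and 8.8% had every one below, and 14.3% had an unadjusted p under 0.05.

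Btg2, an antiproliferative gene that growth factors and p53 induce, was the 1 gene that passed in each of the 9 fits with 1 array left out (highest adjusted p 0.0429). It read 7.16, 7.33 and 7.45 in HDAC4-NT hearts 1 to 3 and 8.40, 8.64 and 8.63 in luciferase hearts 1 to 3. The 3 luciferase hearts lay close together here, heart 1 included, and the sham mean was 7.21. The difference was -1.24 (SE 0.10, adjusted p 0.00423). Atf3 read 5.87, 5.93 and 6.41 with HDAC4-NT and 8.03, 8.98 and 8.76 with luciferase. Luciferase heart 1 was the lowest of its group for Atf3, yet it stood 1.62 above the highest HDAC4-NT heart. The Atf3 difference of -2.52 (SE 0.23, adjusted p 0.00667) was -1.96 against heart 1, -2.91 against heart 2 and -2.69 against heart 3. Without HDAC4-NT heart 1 or 2, Atf3 and Ero1a missed the threshold, each at adjusted p 0.0598 and 0.0622.

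Ero1a, whose product hands disulphide bonds to folding proteins, read 7.24, 7.33 and 7.40 with HDAC4-NT and 8.11, 8.46 and 8.22 with luciferase. The HDAC4-NT mean of 7.32 was 0.01 above the sham mean of 7.31, and the difference from luciferase was -0.94 (SE 0.09, adjusted p 0.00667). Slc2a1 was at 9.16, 9.22 and 9.13 with HDAC4-NT and at 9.95, 10.43 and 10.10 with luciferase. Here the HDAC4-NT hearts lay between sham (mean 8.64) and luciferase. The Slc2a1 difference was -0.99 (SE 0.11, adjusted p 0.0128). Shb, an adaptor protein of tyrosine kinase signalling, read 6.60, 6.65 and 6.83 against 7.37, 7.33 and 7.31. It was 1 of 7 lower genes in which luciferase heart 1 was not the luciferase heart nearest to HDAC4-NT, and it differed by -0.64 (SE 0.07, adjusted p 0.0128). Slc2a1 missed the threshold without any 1 of the HDAC4-NT hearts (adjusted p up to 0.0896), and Shb without luciferase heart 2 or HDAC4-NT heart 1 or 2 (up to 0.096). Lrrc14b, described below, also passed in 6 of the 9 fits, and the other 26 genes passed in 1 to 3 of them (adjusted p up to 0.215).

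Gadd45g, a small stress-inducible growth-arrest protein, read 6.06, 5.87 and 6.21 with HDAC4-NT and 7.02, 7.37 and 6.88 with luciferase. Otud1, a deubiquitinase, read 6.20, 6.16 and 7.03 against 7.68, 7.90 and 7.96. HDAC4-NT heart 3 stood apart from hearts 1 and 2 for Otud1 and was still below every luciferase heart. These genes differed by -1.05 (SE 0.16) and -1.38 (SE 0.20), each with an adjusted p of 0.0458. Arid5a, an RNA-binding protein known to stabilise inflammatory transcripts such as that of interleukin 6, read 6.44, 6.37 and 6.50 against 7.23, 7.46 and 7.07 (difference -0.82, adjusted p 0.0388). Klf4, a zinc-finger transcription factor, read 7.16, 7.08 and 7.19 against 7.59, 7.68 and 7.75 (difference -0.53, adjusted p 0.0458). For both, the HDAC4-NT mean lay inside the range of the sham hearts.

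The other 5 lower genes had differences of -0.38 to -0.73. Tent5a, a poly(A) polymerase that lengthens messenger RNA tails, read 6.71, 6.81 and 7.17 against 7.73, 7.59 and 7.56. Anp32a, an acidic nuclear protein, read 8.23, 7.86 and 8.05 against 8.91, 8.60 and 8.82. In both genes luciferase heart 1 was the highest of all 6 hearts. Cttnbp2nl, a partner of protein phosphatase 2A complexes, differed by -0.54 and Dusp16, a phosphatase that switches off MAP kinases, by -0.49. Hspbp1, a cochaperone of Hsp70, differed by -0.38. For Dusp16 and Hspbp1 the HDAC4-NT hearts also lay below the sham hearts, with means of 7.34 against 7.67 and 8.43 against 8.67.

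Among the higher genes Cd200, a membrane protein that restrains myeloid cells and is made by endothelium and other cells, had the largest difference. It read 8.96, 8.95 and 8.62 with HDAC4-NT and 8.19, 7.57 and 7.76 with luciferase (difference 1.00, SE 0.15, adjusted p 0.0458). Efna1, which encodes ephrin-A1, a ligand of Eph receptors on vessels, read 7.46, 7.41 and 7.46 against 6.92, 6.48 and 6.72 (difference 0.74, SE 0.11, adjusted p 0.0458). In both genes luciferase heart 1 was the luciferase heart nearest to HDAC4-NT. Lrrc14b, a leucine-rich repeat gene, read 8.18, 8.12 and 8.07 with HDAC4-NT and 7.49, 7.55 and 7.63 with luciferase, and sham stood higher than both at a mean of 8.88. Its difference was 0.56 (SE 0.06, adjusted p 0.0142), and it missed the threshold without luciferase heart 2 or HDAC4-NT heart 1 or 2 (up to 0.11).

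Smim20, a small mitochondrial membrane protein, had the same order of groups as Lrrc14b. It read 9.45, 9.47 and 9.53 with HDAC4-NT, 9.20, 9.04 and 9.04 with luciferase and 10.06 on average in sham. Col8a1, which encodes a short-chain collagen of vessel walls and scars, had another order, with sham lowest and HDAC4-NT farthest from it. It read 9.72, 9.72 and 9.72 with HDAC4-NT and 9.27, 9.30 and 9.11 with luciferase, at a sham mean of 7.24 (difference 0.49, SE 0.07, adjusted p 0.0388). Pxdn, a peroxidase that crosslinks collagen IV of basement membranes, read 8.84, 8.57 and 8.68 against 7.92, 8.00 and 8.25, at a sham mean of 8.19. For Pxdn, luciferase heart 3 was the nearest to HDAC4-NT and heart 1 the farthest.

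Nav3, a microtubule-associated protein gene, read 6.72, 6.55 and 6.59 with HDAC4-NT and 6.15, 6.17 and 6.16 with luciferase. The luciferase and sham hearts were alike in Nav3 (sham mean 6.14), and the 3 HDAC4-NT hearts alone stood above them. Nos2, the inducible nitric oxide synthase, read 6.33, 6.33 and 6.44 against 5.95, 5.82 and 5.94, close to the filter value of 5.66. Orai3, a pore subunit of store-operated calcium channels, read 7.88, 7.83 and 7.85 against 7.46, 7.55 and 7.51 (difference 0.35, SE 0.05, adjusted p 0.0458). Mrtfb, a coactivator of serum response factor, differed by 0.43, Rreb1, a zinc-finger factor downstream of Ras, by 0.41 and Lmo4, a LIM-only cofactor, by 0.38. Arhgap32 differed by 0.50 and Pik3c2b, a class II phosphoinositide kinase, by 0.43. The remaining higher genes were Olfr558 (0.74), an olfactory receptor gene, Zfp827 (0.37), Septin4 (0.36) and Rubcn (0.31), an inhibitor of autophagy.

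**Figure D2:**
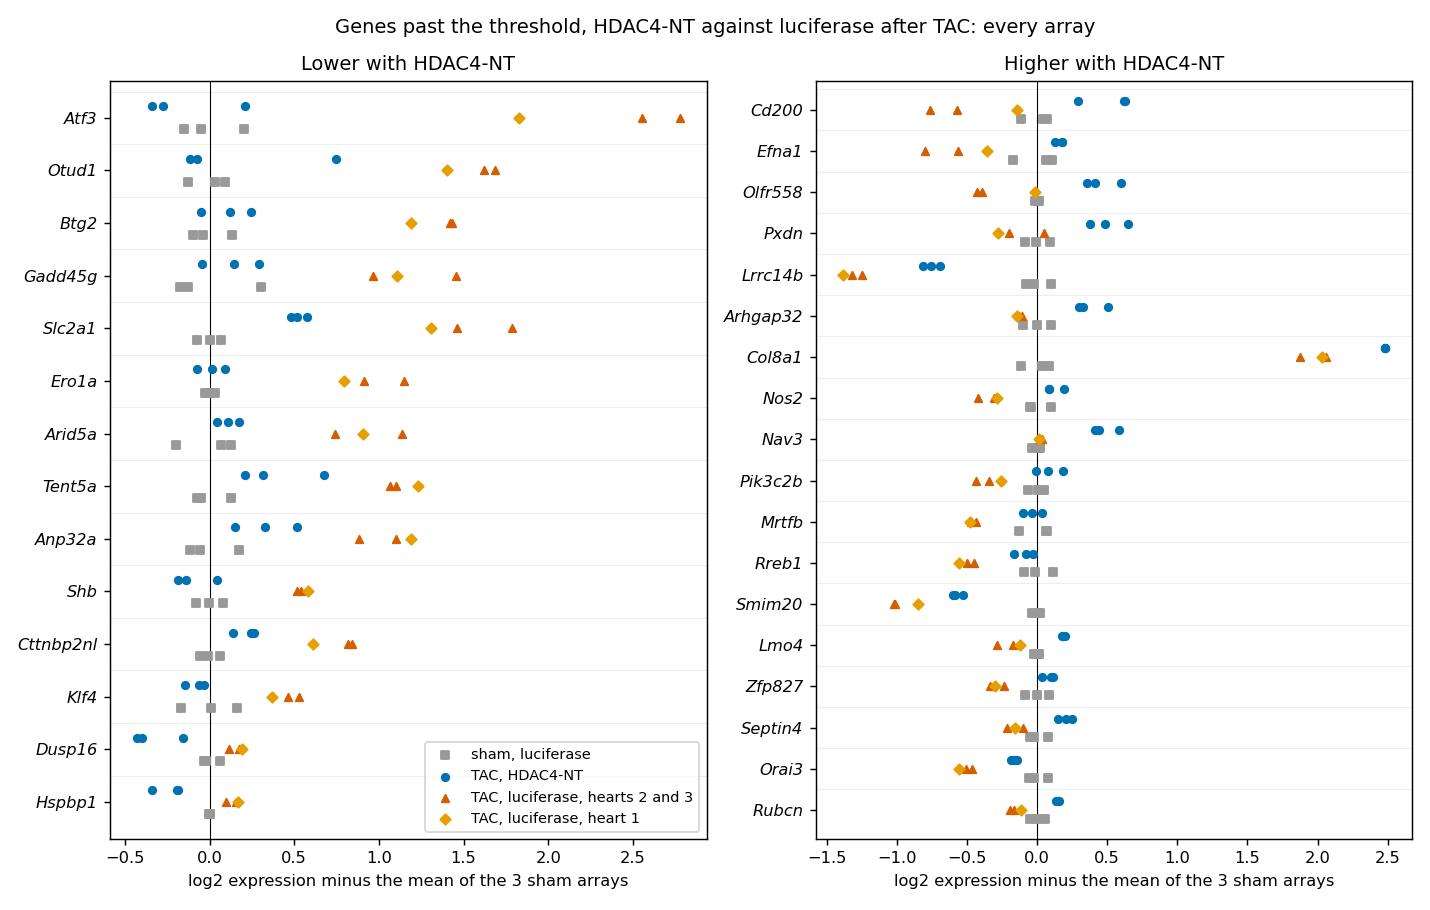
Log2 expression of the 32 genes past the threshold on each of the 9 arrays, as the difference from the mean of the 3 sham arrays; genes are in order of the difference between the TAC groups, and each point is 1 heart. The HDAC4-NT points (circles) do not overlap the luciferase points in any gene, and luciferase heart 1 (diamonds) lies close to hearts 2 and 3 in Btg2, Shb, Nav3 and Orai3 while it lies nearer HDAC4-NT in Atf3, Cd200 and Olfr558.

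The immediate early list had 28 of its 30 genes tested, and all 28 had a difference below 0 (6035 of 12597 over all genes). Their median was -0.64 against 0.00 over all genes tested. Of the 28, 3 passed, Atf3, Btg2 and Klf4, all lower (0.111% of all genes). In 21 of 28 every HDAC4-NT heart was below every luciferase heart (8.8% of all genes). The median was -0.39 against luciferase heart 1, -0.81 against heart 2 and -0.90 against heart 3. Luciferase heart 1 was the lowest luciferase heart in 22 of 28 genes (4237 of 12597 over all genes). It was still above all 3 HDAC4-NT hearts in 22 of 28 (4063 of 12597). The list's mean level was 6.71, 6.72 and 6.88 with HDAC4-NT and 7.23, 7.91 and 7.91 with luciferase. Without luciferase heart 1, 22 of the 28 passed, all lower (3.15% of all genes).

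The other immediate early genes split by how luciferase heart 1 behaved. Egr1, a zinc-finger factor induced by growth signals, read 7.55, 7.50 and 7.88 with HDAC4-NT and 8.91, 8.84 and 9.94 with luciferase (difference -1.59, SE 0.37, adjusted p 0.0922). Heart 1 was level with heart 2 for Egr1, and heart 3 was the highest. Jun, a component of AP-1, read 7.43, 7.63 and 7.76 against 8.19, 8.02 and 8.49 (difference -0.62, adjusted p 0.1). In Nr4a1, an orphan nuclear receptor, the values were 6.68, 7.26 and 7.20 against 7.66, 10.56 and 10.65, with heart 1 at -2.94 from the mean of hearts 2 and 3. Its difference of -2.58 (SE 0.68, adjusted p 0.125) was -0.62 against heart 1. Fos, the partner of Jun, read 5.47, 5.49 and 5.55 against 5.74, 7.05 and 6.67 (adjusted p 0.127), and Egr2 read 5.98, 5.98 and 6.30 against 6.57, 7.85 and 9.39 (adjusted p 0.165). Fosl2, Myc and Nr4a3, chosen after their values were seen, lay in between, with heart 1 at 7.45, 6.95 and 6.90, against HDAC4-NT hearts at 6.62 to 6.83, 6.07 to 6.46 and 6.05 to 6.30 and hearts 2 and 3 at 8.60 to 9.07, 7.69 to 8.32 and 7.77 to 8.47. None of these passed (adjusted p 0.0637, 0.0636 and 0.0821).

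**Figure D3:**
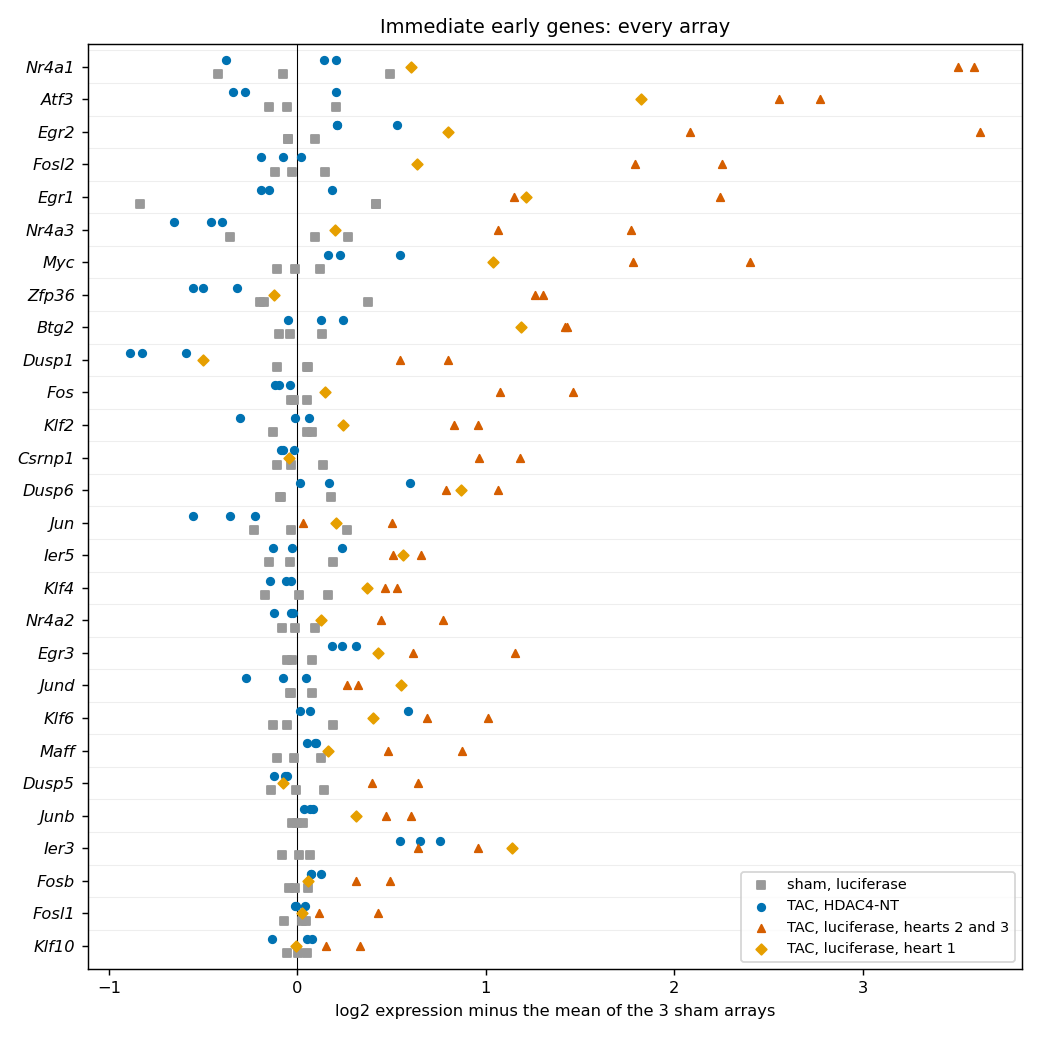
Log2 expression of the 28 immediate early genes tested on each of the 9 arrays, as the difference from the mean of the 3 sham arrays; each point is 1 heart. Luciferase hearts 2 and 3 (triangles) lie to the right in most genes, HDAC4-NT hearts (circles) lie near the sham hearts (squares), and luciferase heart 1 (diamonds) ranges from level with its group in Egr1 and Btg2 to level with HDAC4-NT in Csrnp1 and Fosb.

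In the other stress lists 0 to 2 members passed (0.254% of all genes). Of 17 integrated stress response genes, which act when protein synthesis is throttled, 1 passed (Atf3) and the median was -0.16. In 7 of the 17 every HDAC4-NT heart was below every luciferase heart (8.8% of all genes) and in 1 above (11.6%). In limma 8 had an unadjusted p under 0.05 (14.3% of all genes). Without luciferase heart 1, 5 of the 17 passed, all lower (3.15% of all genes). Of 26 hypoxia response genes 1 passed (Slc2a1, lower), 8 had every HDAC4-NT heart below every luciferase heart (8.8% of all genes) and 0 above, and the median was -0.14. That median was -0.01 against luciferase heart 1, -0.21 against heart 2 and -0.29 against heart 3, and without heart 1, 10 of the 26 passed, all lower (3.15% of all genes). Vegfa, the endothelial growth factor, read 10.30, 10.48 and 10.51 against 10.76, 10.73 and 10.99 (difference -0.40, adjusted p 0.0844). Ddit4, which restrains mTOR, read 6.31, 6.75 and 6.30 against 6.49, 9.84 and 9.91, and so differed from HDAC4-NT in hearts 2 and 3 only. Its adjusted p was 0.227.

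Of 13 growth arrest and DNA damage genes, Btg2 and Gadd45g passed (0.254% of all genes). In 4 of the 13 every HDAC4-NT heart was below every luciferase heart (8.8% of all genes) and in 2 above (11.6%). Cdkn1a, the cyclin-dependent kinase inhibitor p21, read 8.86, 9.15 and 9.09 with HDAC4-NT and 10.06, 11.56 and 11.64 with luciferase (difference -2.06, SE 0.50, adjusted p 0.102). Luciferase heart 1 was above all HDAC4-NT hearts and below hearts 2 and 3. Of 22 unfolded protein response and folding genes Ero1a passed and the median was -0.08. In 6 of the 22 every HDAC4-NT heart was below every luciferase heart (8.8% of all genes) and in 1 above (11.6%). Hspa5, the chaperone BiP of the endoplasmic reticulum, stood at -0.20 (adjusted p 0.372) and Ddit3, the factor CHOP, at 0.08 (adjusted p 0.859). Of 15 heat shock genes 0 passed in limma (2 at an unadjusted p under 0.05), and 3 had every HDAC4-NT heart below every luciferase heart, against 14.3% and 8.8% of all genes. Hspa1a, the inducible Hsp70, read 6.20, 6.41 and 6.57 against 8.09, 7.80 and 9.59 (difference -2.10, SE 0.39, adjusted p 0.0586). Its near-identical neighbour Hspa1b can share probes with it.

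Most of 26 cytokine, chemokine and acute-phase genes, 24, had a difference below 0 (6035 of 12597 over all genes), with a median of -0.32. That median was -0.12 against luciferase heart 1, -0.37 against heart 2 and -0.19 against heart 3. In 6 every HDAC4-NT heart was below every luciferase heart (8.8% of all genes) and in 1 above (11.6%). In limma 10 had an unadjusted p under 0.05 (14.3% of all genes). Nos2 was the 1 that passed, and it was higher (0.143% of all genes). Hearts differed in the inflammatory genes in more than 1 way. Ccl5, a T-cell chemokine, read 6.59, 6.54 and 6.56 with HDAC4-NT and 8.13, 6.45 and 6.66 with luciferase, so that it was high in luciferase heart 1 alone. The interferon-inducible GTPase genes Igtp and Irgm1 and the antigen-presentation gene H2-Ab1 were also highest in luciferase heart 1, at 8.50, 8.16 and 9.95 in luciferase heart 1 and 6.00, 6.47 and 8.16 in heart 2. Of 16 interferon response genes 0 passed in limma (3 at an unadjusted p under 0.05, against 14.3% of all genes). Luciferase heart 1 was the highest luciferase heart in 16 of 16 (5202 of 12597 over all genes). The median was -0.10 against heart 1, 0.42 against heart 2 and 0.21 against heart 3. In only 1 of the 16, Rsad2, an antiviral protein, was every HDAC4-NT heart above every luciferase heart (11.6% of all genes), and in 0 below (8.8%). Rsad2 read 7.92, 8.02 and 7.64 against 7.48, 6.57 and 6.84 (difference 0.89, adjusted p 0.0840). Without heart 1, 6 of the 16 passed, all higher (2.38% of all genes), so the list's place depended on which luciferase heart it was set against.

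**Figure D4:**
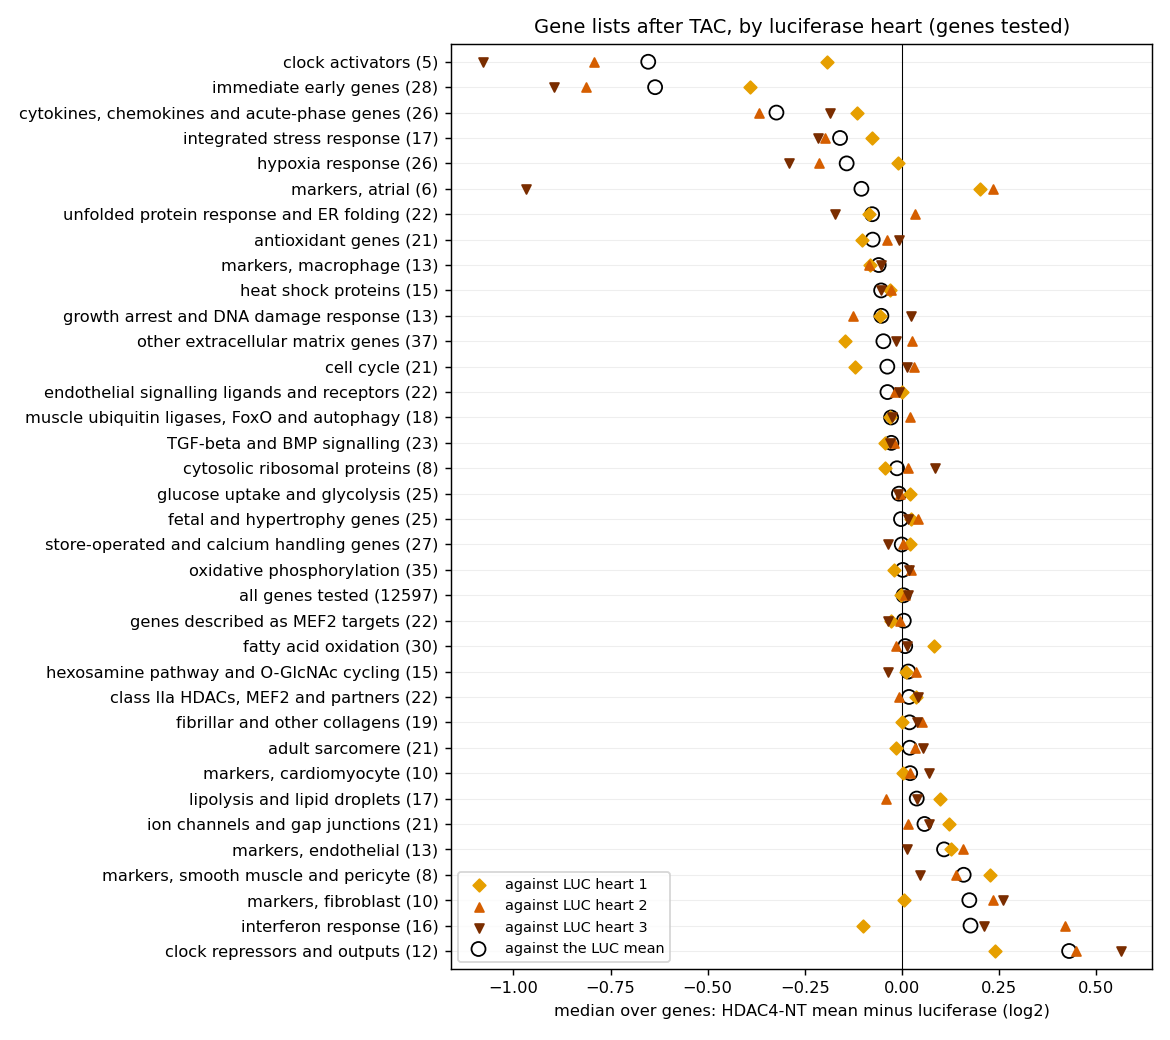
Median difference, in log2 units, between the HDAC4-NT mean and each luciferase heart over the genes of each list with at least 5 genes tested; open circles show the difference from the luciferase mean, and the number of genes tested follows each name. The medians of most lists lie near 0 for every heart. Both clock lists and the immediate early, hypoxia and interferon genes lie farther from 0 against hearts 2 and 3 than against heart 1. The 6 atrial markers lie at 0.20 and 0.24 against hearts 1 and 2 and at -0.97 against heart 3.

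In the circadian clock lists no gene passed, and 8 of 12 and 4 of 5 genes did not overlap between the groups. Of the 12 repressor and output genes 0 passed in limma, 8 had every HDAC4-NT heart above every luciferase heart (11.6% of all genes), and the median was 0.43. Of the 5 activator genes 0 passed in limma, 3 had every HDAC4-NT heart below (8.8% of all genes) and 1 every one above, and the median was -0.65. At an unadjusted p under 0.05, there were 9 of the 12 and 4 of the 5 (14.3% of all genes). Dbp, an output transcription factor that the clock drives through E-boxes, read 10.10, 9.23 and 9.47 with HDAC4-NT and 8.68, 7.16 and 6.66 with luciferase (difference 2.10, SE 0.48, adjusted p 0.0877). Per3, a period gene, read 6.70, 6.25 and 6.39 against 5.95, 5.63 and 5.55 (difference 0.74, adjusted p 0.0611). Arntl, the activator BMAL1, ran the other way, at 6.22, 6.56 and 6.63 against 6.84, 7.37 and 7.55 (difference -0.78, adjusted p 0.1). In Dbp, Per3 and Arntl alike, luciferase heart 1 lay between HDAC4-NT and luciferase hearts 2 and 3.

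An index of clock state, the mean of Arntl, Clock and Npas2 minus that of 6 output genes, was -1.70, -1.05 and -1.10 with HDAC4-NT, -0.74, 0.47 and 0.98 with luciferase and -0.81, -0.24 and -0.12 in sham. The groups did not overlap in the index, and luciferase heart 1 lay between HDAC4-NT and hearts 2 and 3. With the index as a covariate 0 of 12597 genes passed in limma (805 at an unadjusted p under 0.05), and the immediate early median was -0.25. All 32 genes kept their direction, with Atf3 at -1.84, Btg2 at -0.98 and Cd200 at 0.60. Of the 103 named genes that had not passed, 17 changed sign, among them Ddit4 (-2.29 to 0.45) and Thbs1 (-1.66 to 0.75). Nr4a1 went from -2.58 to -0.14, Errfi1 from -2.24 to -0.01, Sik1 from -1.67 to -0.10 and Cdkn1a from -2.06 to -0.39. Ddit4, Thbs1, Nr4a1, Errfi1 and Sik1 were named because luciferase heart 1 departed most from hearts 2 and 3 in them. The index splits the luciferase hearts in the same way, so these shifts cannot tell clock state from that split. Nor can the index be told apart from the cargo, as the groups do not overlap in it. The sources used here do not give the hour at which hearts were taken.

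**Figure D5:**
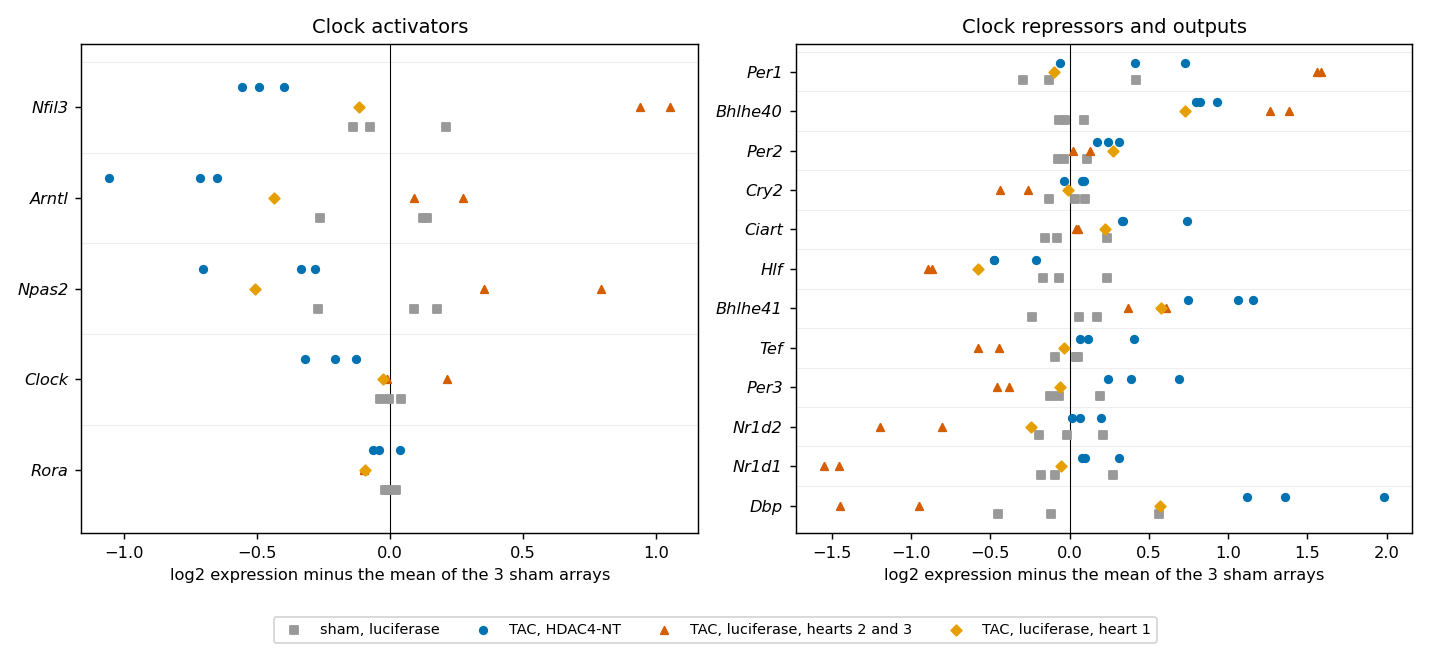
Log2 expression of 5 clock activator genes (left) and 12 clock repressor and output genes (right) on each of the 9 arrays, as the difference from the mean of the 3 sham arrays; each point is 1 heart. HDAC4-NT hearts (circles) lie left of the luciferase hearts for Arntl and right of them for Dbp, Per3, Tef and Nr1d2, and luciferase heart 1 (diamonds) lies between them and luciferase hearts 2 and 3 (triangles) in these genes.

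None of the genes of HDAC4's own circuit passed. Of 22 genes for class IIa HDACs, MEF2 factors and their partners 0 passed in limma (4 at an unadjusted p under 0.05, against 14.3% of all genes) and the median was 0.02. Mef2c had the smallest p of the list, at 8.98, 8.82 and 8.92 against 8.68, 8.43 and 8.46 (difference 0.38, adjusted p 0.103), and Mef2d stood at 0.07 (SE 0.07). The probe set of Hdac4 read 7.04, 6.95 and 6.88 against 6.93, 7.08 and 6.90. The sources used here do not say which part of Hdac4 its probes cover, and these values say nothing about the delivered fragment. Of 22 genes described as MEF2 targets 0 passed in limma (8 at an unadjusted p under 0.05, against 14.3% of all genes), 6 had every HDAC4-NT heart below every luciferase heart (8.8%) and 3 above (11.6%), and the median was 0.00. Adamts1, a matrix protease, was the lowest p of that list, at 6.94, 7.05 and 7.37 against 8.07, 9.39 and 8.64 (difference -1.58, SE 0.28, adjusted p 0.0559). Of the 22, 3 are also immediate early genes, Nr4a1 and Jun among them.

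Pathways that class IIa HDACs have been linked to in the heart were looked at in the same way. Of 15 hexosamine pathway genes, which make the sugar donor for O-GlcNAc, 0 passed in limma (3 at an unadjusted p under 0.05, against 14.3% of all genes). Gfpt2, an entry enzyme of the pathway, read 6.62, 7.28 and 6.62 against 7.66, 8.80 and 8.70 (difference -1.55, SE 0.29, adjusted p 0.0611), with luciferase heart 1 above all HDAC4-NT hearts and below hearts 2 and 3. Gfpt1, its ubiquitous counterpart, stood at -0.10, Ogt, which adds the sugar, at 0.14 and Oga, which removes it, at 0.08. Of 27 store-operated and calcium handling genes, 1 passed (Orai3, higher, 0.143% of all genes). In limma 4 of the 27 had an unadjusted p under 0.05 (14.3% of all genes). The sensor Stim1 stood at -0.06 and the pump Atp2a2 at -0.02. Of 17 lipolysis and lipid droplet genes 0 passed in limma (2 at an unadjusted p under 0.05, against 14.3% of all genes). Abhd5, an activator of triglyceride lipolysis, stood at -0.03 (SE 0.07).

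No gene on the list of classic load markers passed. Of 25 fetal and hypertrophy genes 0 passed in limma (3 at an unadjusted p under 0.05, against 14.3% of all genes), 4 had every HDAC4-NT heart above every luciferase heart (11.6%) and 2 below (8.8%), and the median was -0.00. Nppa read 13.33, 13.24 and 13.38 with HDAC4-NT and 13.24, 13.08 and 13.15 with luciferase, against a sham mean of 11.12, and Myh7, the fetal myosin heavy chain, 11.53, 11.01 and 11.71 against 11.43, 11.70 and 11.40. The groups overlapped in both genes. Nppb, Acta1 and Myh6 stood at -0.17 (SE 0.12), 0.12 (SE 0.22) and 0.13 (SE 0.06). Of 19 collagen genes 1 passed (Col8a1, higher, 0.143% of all genes) and the median was 0.02. Of 37 other matrix genes 1 passed (Pxdn, higher) and the median was -0.05. In limma 2 of the 19 and 11 of the 37 had an unadjusted p under 0.05 (14.3% of all genes). In 7 of the 37 every HDAC4-NT heart was below every luciferase heart (8.8% of all genes) and in 3 above (11.6%). Postn, the matricellular protein periostin, read 11.73, 11.36 and 11.78 against 11.16, 11.49 and 11.23. Thbs1, a thrombospondin, read 8.92, 9.70 and 9.36 against 9.27, 11.95 and 11.75, so that luciferase heart 1 lay within the HDAC4-NT range. Of 30 fatty acid oxidation genes, 35 oxidative phosphorylation genes and 21 sarcomere genes 0 passed in limma, with medians of 0.01, 0.00 and 0.02. At an unadjusted p under 0.05 there were 3, 1 and 2 of them (14.3% of all genes). Pdk4 and Ucp3, which mark fuel use, stood at -0.32 (SE 0.25) and 0.38 (SE 0.27).

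Both endothelial lists held differences in each direction. Of 22 endothelial signalling ligands and receptors 2 passed, Efna1 and Cd200, both higher (0.143% of all genes). In the list 10 genes had a difference above 0 and 12 below, with a median of -0.04. In 6 every HDAC4-NT heart was above every luciferase heart (11.6% of all genes) and in 3 below (8.8%). Without luciferase heart 1, 6 passed as higher (2.38% of all genes) and 6 as lower (3.15%). Aplnr, the apelin receptor, read 8.66, 8.25 and 8.45 against 7.91, 5.92 and 6.43 (difference 1.70, SE 0.41, adjusted p 0.102), a case in which luciferase heart 1 was the nearest to HDAC4-NT. Nrp1, a coreceptor of endothelial growth factor, read 10.38, 10.33 and 10.28 against 9.66, 9.38 and 9.84 (difference 0.70, adjusted p 0.0687), with heart 1 inside its own group. Of 13 endothelial markers 0 passed in limma (7 at an unadjusted p under 0.05, against 14.3% of all genes), 5 had every HDAC4-NT heart above (11.6%) and 2 every one below (8.8%). Tie1, an endothelial receptor kinase, stood at 0.28 (adjusted p 0.0568) and Cldn5, a tight junction protein, at -1.02 (adjusted p 0.0611). Of 8 smooth muscle and pericyte markers 0 passed in limma (2 at an unadjusted p under 0.05) and 3 had every HDAC4-NT heart above (11.6% of all genes). Pdgfrb and Cspg4 of that list stood at 0.45 (adjusted p 0.0519) and 0.43 (adjusted p 0.0532).

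Markers of the cells that a whole heart holds were set beside these results. All 10 cardiomyocyte markers were tested, with a mean level of 13.06 to 13.07 with HDAC4-NT and 13.00 to 13.07 with luciferase, and 4 of 5 liver markers were too dim to test. The mean level of the endothelial markers was 9.02 to 9.09 with HDAC4-NT and 8.99 to 9.07 with luciferase, that of the smooth muscle and pericyte markers 8.96 to 8.99 against 8.75 to 8.85, that of the fibroblast markers 9.12 to 9.19 against 8.94 to 9.08 and that of the macrophage markers 7.29 to 7.41 against 7.45 to 7.49. The last 3 lists thus did not overlap between the groups in their mean level. Gene by gene, the groups were apart in 0 of 10 fibroblast markers. In 3 of 13 macrophage markers every HDAC4-NT heart was below (8.8% of all genes). In 3 of 8 smooth muscle and pericyte markers every one was above (11.6%). Of the 13 macrophage markers 5 had a difference above 0 and 8 below, with Lyve1 at -0.80 and Cd14 at -0.71. The fibroblast median was 0.005 against luciferase heart 1, 0.23 against heart 2 and 0.26 against heart 3. The part of these lists in the differences above was not tested. The mean of 4 atrial genes was 5.94, 6.85 and 6.94 with HDAC4-NT and 5.98, 6.23 and 8.07 with luciferase, highest in luciferase heart 3. With it as a covariate 7 of 12597 genes passed.

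Outside the lists, some genes separated the groups by wide gaps without passing. Tnfsf10, the death ligand TRAIL, read 7.50, 7.22 and 7.36 against 6.80, 5.70 and 5.91 (difference 1.22, adjusted p 0.0687). Pik3ip1, an inhibitor of phosphoinositide 3-kinase, read 8.40, 8.08 and 7.81 against 7.21, 7.02 and 7.05 (difference 1.00, adjusted p 0.0611). In Pik3ip1 the 3 luciferase hearts were close together, and in Tnfsf10 heart 1 stood above hearts 2 and 3. Abca8a, a lipid transporter, and Sp100, a nuclear body protein, differed by 0.81 and 0.79 (adjusted p 0.0611 and 0.0577). Among the genes in which luciferase heart 1 departed most from hearts 2 and 3, Errfi1, which inhibits the epidermal growth factor receptor, read 9.06, 11.64 and 12.13 in luciferase hearts 1 to 3 and 8.55 to 8.83 with HDAC4-NT. Sik1, a salt-inducible kinase that phosphorylates class IIa HDACs, read 8.49, 10.56 and 10.31, against 8.03 to 8.19. Apold1, Stc1, Depp1 and Fkbp5, the last a glucocorticoid-induced gene, had the same order, with luciferase heart 1 at 7.25, 6.25, 6.85 and 6.25 and heart 2 at 9.68, 8.68, 9.14 and 8.27. None of these 6 passed with all hearts (adjusted p 0.0922 to 0.183).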

How the data were processed

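RNA from whole hearts was labelled as biotinylated cRNA and run on Affymetrix arrays, as the labels' protocols state. Values are log2 expression as deposited; the submitters' processing notes name RMA, without a version. The sources used here do not state the probe set definitions. Sorted values were identical on all 9 arrays, as quantile normalization leaves them. RMA compresses low values. Precision is limited by the number of arrays (median SE of a difference 0.07). Of 21225 probe sets, 20239 had 1 gene symbol in the platform annotation, and all matched RefSeq (GRCm38.p6) by gene ID; the other 986 are unnamed here. Genes with at least 3 of 9 arrays above the 40th percentile (5.66) were tested. Groups came from the labels, with 3 animals each.

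A linear model with 3 groups was fitted to the 9 arrays in R 4.3.3 (limma 3.58.1: lmFit, eBayes), and p-values were adjusted over 12597 genes by the Benjamini-Hochberg method. Sham arrays enter only the estimate of spread. The script was tested on simulated data. Python 3.11.15 with matplotlib 3.10.9 drew the figures. The members, the 42 gene lists and the rules were chosen with earlier results of these data known, so no list is independent evidence. Named genes are those past the threshold; the 10 a direction with the widest gap between groups; members past the threshold of each list, or its 2 smallest p; 29 fixed genes; and the 10 a direction in which luciferase heart 1 departed most from hearts 2 and 3. Fosl2, Myc, Nr4a3, Tef, Nr1d2, Csrnp1, Fosb, Clock and Npas2 were named otherwise. The other settings tried are given with their effect in the closing section.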

Additional observations from a re-analysis of the deposited data

How the results depend on the processing

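All 32 genes kept the direction of their difference under each of 21 other settings. Their groups did not overlap, so leaving out arrays could not change a direction. A change of filter or prior leaves the difference itself as it was. Of the 32, 0 still passed with only the 6 TAC arrays or with the clock index, and 1 without HDAC4-NT heart 1 or 2. Of the 103 named genes that had not passed, 17 changed sign with the clock index as a covariate, Depp1 (to 0.10) and Fkbp5 (to 0.03) among them, 12 with luciferase heart 1 as the only luciferase heart and up to 7 without any 1 array; none of these passed after the change. The number past the threshold, 32 by limma, did not hold. It was 10 without a filter, 103 with a filter at the 60th percentile, 75 with a trended and robust prior and 827 with weighted arrays (luciferase heart 1 had the lowest weight, 0.479). With only the 6 TAC arrays it was 0 in limma (1868 genes at an unadjusted p under 0.05), and 1 without the moderated prior. With the clock index as a covariate it was 0 in limma (805), and with the atrial mean 7. Thresholds of 0.01 and 0.10 gave 3 and 297, and a minimum of 1.5-fold gave 14. Cyclic loess over all probe sets gave 40 (57.5% higher, against 56.2%), and over the genes tested only, an alternative added after seeing the data, 23 (43.5% higher). Leaving out 1 array gave 1 to 697, and leaving out luciferase hearts 2 and 3 together 10. Taking the leading number of each sample code as a random block gave 177. The fitted correlation within a code was -0.11. No code was shared between groups, so the code cannot be told apart from the group. The replicate number as a block gave 106; hearts of the same number had deviations correlated at 0.20, 0.03 and 0.08, and HDAC4-NT heart 2 went best with luciferase heart 3 (0.13), so the numbers were not taken to pair hearts. Cyclic loess moved the median of all genes by -0.01. The immediate early median ran from -0.74 to -0.25 over all settings. Genes whose groups did not overlap numbered 2566, and 3680, 1864 and 2557 without a filter, with the stricter one and under cyclic loess. The causes of these shifts were not tested.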
